A study of Mus musculus with 39 samples.

Results

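The comparison described here is that of 6 weeks of mainstream tobacco smoke (MTS) with sham exposure in mouse lung. Its members are the arrays whose titles read 6 week smoke (5 arrays) and 6 week sham (5 arrays), which is 10 of the 39 arrays in the series. All mice were male C57BL/6 × CBA F1 hybrids. The labels give an age of 8 to 10 weeks, which by the study's wording reads as the age when exposure began. Smoke mice breathed MTS through the nose of 2 reference cigarettes daily, 5 days in each week, over 6 weeks that included a lead-up period, and lungs were taken 3 hours after the last cigarette. Sham mice were held in restrainers with no smoke and were killed with no break. Each array held RNA from part of 1 frozen left lung lobe, labelled with Cy5, against a Cy3-labelled universal mouse reference RNA, so every level below is a log2 ratio of lung to reference and every fold change is smoke over sham. Each array is 1 mouse. The p-values and SEs rest on the spread between mice within groups. That spread was estimated over all arrays of the fit, those of the other groups included, and not over these 10 alone.

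Tobacco smoke carries polycyclic aromatic hydrocarbons, which bind the aryl hydrocarbon receptor (AhR). The bound receptor enters the nucleus and switches on cytochrome P450 enzymes of the Cyp1 family along with its own repressor. Smoke also carries oxidants and aldehydes, and the transcription factor Nrf2 answers these by raising enzymes that reduce quinones, make glutathione and recycle thioredoxin. In the lung, alveolar macrophages take up inhaled particles and are known to load their lysosomes with them.

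One sham array needs description first. On the array labelled 6 week sham 2, Cyp1a1 and Cyp1b1 lay within the range of the smoke arrays. The counts of called probes and many gene values are therefore given with all arrays and without that array. Other gene values are given in a single setting. Where a gene's fold change is given once with no setting named, it is without that array. Sham 2 was singled out by the level of genes that smoke is known to raise, so for such genes its removal favours a larger difference by construction. The labels give exposure dates but name no runs. The 5 runs used here were inferred from the order in which the groups repeat along the sequence of dates. Of these, 4 hold both a 6 week smoke and a 6 week sham array. Smoke 2 stands in the run with no 6 week sham array, so it enters no within-run difference. In its run, sham 2 stands between the 6 week break sham and the 12 week sham, a place that a 12 week smoke array holds in each of the other 4 runs. Its label was kept as given, and whether the label is right was not tested.

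Median Cy5 signal was 371 to 1349 on the smoke arrays and 291 to 1532 on the sham arrays, which was 3.31 to 7.98 and 2.20 to 8.94 times the local background. The share of probes above the array's threshold was 48.4% to 93.4% among smoke arrays and 66.9% to 90.5% among sham arrays, with smoke 4 the lowest and sham 2 at 82.7%. The 10 arrays correlated with each other at 0.802 to 0.958, so none was a copy of another. Lung identity was clear in both groups. The 12 alveolar type II cell markers averaged 2.75 to 3.76 on the smoke arrays and 2.64 to 3.66 on the sham arrays, and 11 of the 12 were above the threshold on all 10 arrays.

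With all arrays, 10 of 17560 probes were called higher in smoke lungs and 1 lower, at an adjusted p under 0.05 (limma with Benjamini-Hochberg adjustment). That is 0.0569% and 0.00569% of the probes, and 0.0626% in either direction. Without sham 2, 27 probes were called higher (0.154%) and 6 lower (0.0342%). The 2 sets shared 10 probes, 23 probes were called without sham 2 only, and Rexo5 was called with all arrays only. At an unadjusted p under 0.05 there were 1477 probes with all arrays (8.41%) and 1621 without sham 2 (9.23%). All 27 higher and all 6 lower probes had that direction in 4 of 4 runs when the smoke array was set against the sham arrays of its own run, sham 2 left out, as did 8.25% (higher) and 6.95% (lower) of the 17560 probes tested. Since the probes were called from these same arrays with the runs as a block, this describes them and is no separate evidence. A fit on the smoke and sham arrays of this comparison alone, which leaves few arrays to estimate the spread, called 0 probes with all arrays and 3 without sham 2. When marked spots were left out, the counts were 46 (24 higher and 22 lower) and 87 (57 higher and 30 lower). Under median centring they were 26, all higher, with all arrays and 61, all higher, without sham 2.

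Cyp1a1 and Cyp1b1, of the AhR group, had the largest increases among the called probes in both settings. Of 10 AhR-responsive genes on the array 9 passed the filter on dim probes, Cyp1a2 being the exception. With all arrays 4 of the 9 were called higher, and without sham 2 it was 5, with none lower in either. The 5 were Cyp1a1, Cyp1b1, Ahrr, Aldh3a1 and Nqo1, of which the last pair also stand in the list of quinone, carbonyl and aldehyde metabolism. The median log2 fold change of the 9 was 1.06 with all arrays and 1.46 without sham 2, beside 0.01 over all 14653 genes tested in both. Of all 14653 genes, 10 were called higher and 1 lower with all arrays, and 26 and 6 without sham 2. The called counts of each list below stand beside these. The 4 members that were not called lay between −0.06 and 0.28 without sham 2.

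Cyp1a1, the cytochrome P450 that oxidises polycyclic hydrocarbons, gave 5.07, 8.06, 7.65, 7.07 and 7.07 on smoke arrays 1 to 5, against 1.25, 6.46, 2.76, 2.81 and 2.05 on sham arrays 1 to 5. Smoke 1 was the lowest smoke array, and only sham 2 overlapped with the smoke range. The fold change was 3.95 ± 0.60 on the log2 scale (SE, 15.5-fold, adjusted p = 0.00104) with all arrays and 4.71 ± 0.47 (26.2-fold, adjusted p = 1.3e-07) without sham 2. Within runs, sham 2 left out, the difference was 3.82 to 5.02. The scanner software had marked the Cyp1a1 spot on 4 smoke arrays and on 4 sham arrays, all but sham 2. It was also marked on all 29 arrays of the other groups. With marked spots left out, 1 smoke array and sham 2 were all that remained of the smoke and sham groups. The log2 fold change between them was 1.60, a value with no spread between mice behind it. The spot was at the scanner limit on 1 smoke array.

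Cyp1b1, a related hydrocarbon-oxidising enzyme, gave 1.61, 1.47, 1.57, 2.05 and 1.50 on smoke arrays, against −1.74, 2.00, −1.38, −1.47 and −1.16 on sham arrays. The smoke arrays were tightly placed, 4 sham arrays lay far below them, and sham 2 sat next to the highest smoke array. Its log2 fold change was 2.52 ± 0.38 (adjusted p = 0.00104) with all arrays and 3.09 ± 0.23 (8.53-fold, adjusted p = 8.9e-10) without sham 2. In the run that holds sham 2, the smoke array exceeded the other sham array by 3.21 and the mean of both sham arrays by 1.63.

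Ahrr, the repressor that AhR induces against itself, gave 1.44, 0.61, 0.69, 1.62 and 1.62 on smoke arrays, against −0.46, 2.52, −0.55, −0.34 and −0.04 on sham arrays. Here sham 2 was above every smoke array. Ahrr was not called with all arrays (log2 fold change 1.06 ± 0.36, adjusted p = 0.365) and was called without sham 2 (1.56 ± 0.26, adjusted p = 0.00163). Its signal was above the threshold on 5 smoke arrays and 3 sham arrays. The scanner software had marked its spot on 3 smoke and 3 sham arrays, and on 28 arrays of the other groups. With marked spots left out the log2 fold change without sham 2 was 2.17. That is the difference of run 2, smoke 5 minus sham 3, so it rests on a single array in each group and leaves no spread to test.

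**Figure D1:**
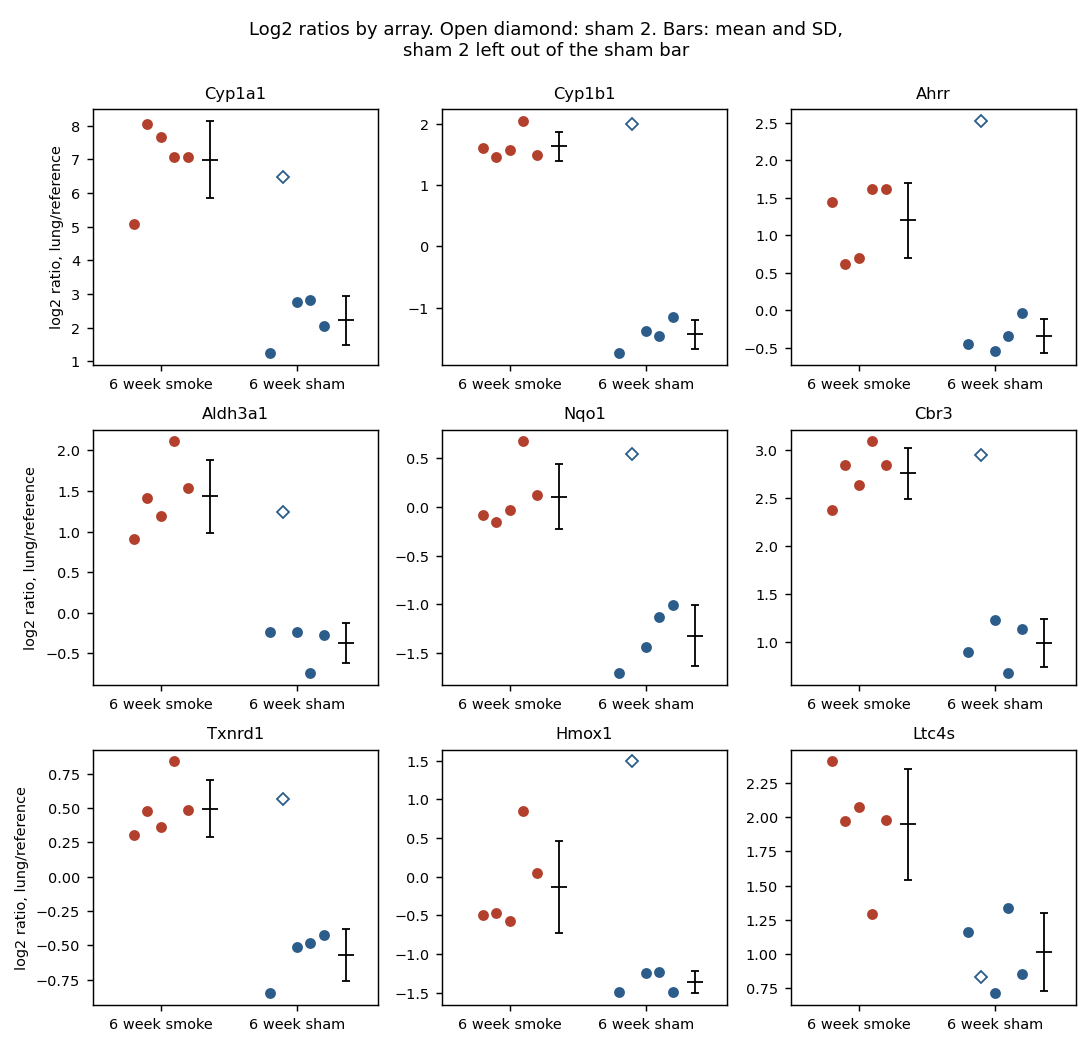
Log2 ratio of lung to reference for 9 genes on each 6 week smoke array (left) and each 6 week sham array (right), arrays 1 to 5 in order, the open diamond being sham 2 and the bars the mean and SD of the 5 smoke and the other 4 sham arrays. For 8 of the 9 genes sham 2 lies within or above the range of the smoke arrays, while for Ltc4s it lies among the sham arrays.

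Among enzymes that detoxify quinones, carbonyls and aldehydes, a few genes rose while the median stayed near that of all genes. Of 24 tested, 3 were called higher with all arrays (Aldh3a1, Cbr3 and Nqo1) and 5 without sham 2 (Adh7 and Akr1b8 in addition), with none lower, while the list's median was 0.08 and 0.07.

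Aldh3a1, which oxidises aromatic and lipid aldehydes, gave 0.91, 1.41, 1.19, 2.11 and 1.54 on smoke arrays, against −0.24, 1.25, −0.23, −0.75 and −0.28 on sham arrays. Sham 2 was the only sham array inside the smoke range. Aldh3a1 rose by 1.57 ± 0.20 on the log2 scale (adjusted p = 0.00013) with all arrays and 1.83 ± 0.15 (adjusted p = 4.9e-09) without sham 2. Cbr3, a carbonyl reductase, gave 2.38, 2.85, 2.64, 3.09 and 2.84 on smoke arrays, against 0.90, 2.94, 1.24, 0.68 and 1.14 on sham arrays, and again sham 2 alone overlapped. Its log2 fold change was 1.43 ± 0.22 (adjusted p = 0.00131) with all arrays and 1.76 ± 0.14 (adjusted p = 2.4e-09) without sham 2.

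Nqo1, a quinone reductase under both AhR and Nrf2, gave −0.08, −0.15, −0.03, 0.68 and 0.12 on smoke arrays, against −1.70, 0.55, −1.44, −1.13 and −1.01 on sham arrays. Smoke 4 was the highest smoke array and sham 2 came next to it. Nqo1 rose by 1.18 ± 0.20 on the log2 scale (adjusted p = 0.00301) with all arrays and 1.46 ± 0.13 (adjusted p = 1.4e-08) without sham 2. Adh7, an alcohol dehydrogenase of epithelia that oxidises retinol, and Akr1b8, an aldo-keto reductase, were called only without sham 2. Their log2 fold changes were 1.22 ± 0.25 (adjusted p = 0.025) and 1.06 ± 0.13 (adjusted p = 2.3e-05), against 0.89 and 0.80 with all arrays. Pon3, a lactone-hydrolysing enzyme, rose by 0.42 ± 0.09 without sham 2 (adjusted p = 0.0457).

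Glutathione genes split in the same way. Among 33 tested, 1 was called higher with all arrays and 3 without sham 2, with a median of 0.10 and 0.09. Gclc and Gclm are the catalytic and modifier subunits of glutamate cysteine ligase, the first step of glutathione synthesis. Gclc gave 2.64, 3.45, 3.18, 3.82 and 3.82 on smoke arrays, against 1.94, 4.21, 2.01, 2.21 and 1.91 on sham arrays. The other 4 sham arrays lay close together, whereas sham 2 was the highest of all 10. Without sham 2 Gclc rose by 1.39 ± 0.25 (adjusted p = 0.00452) and Gclm by 0.94 ± 0.12 (adjusted p = 2.9e-05), against 1.04 (adjusted p = 0.278) and 0.71 (adjusted p = 0.119) with all arrays. Mgst3, a microsomal glutathione transferase, differed in the place of sham 2. Its levels were 0.16, 0.26, 0.28, −0.10 and 0.44 on smoke arrays, against −0.27, −1.03, 0.08, −0.39 and −0.57 on sham arrays, with sham 2 the lowest and sham 3 above smoke 4. It was called in both settings, at 0.55 ± 0.11 (adjusted p = 0.0289) with all arrays and 0.46 ± 0.10 (adjusted p = 0.0452) without sham 2, while a second, dimmer Mgst3 probe gave 0.46 (adjusted p = 0.278) and 0.30 (adjusted p = 0.384). Gpx2, an epithelial glutathione peroxidase, had log2 fold changes of 0.89 and 0.76 and was not called (adjusted p = 0.349 and 0.427).

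In the thioredoxin list 15 genes were tested, and 1 was called higher with all arrays and 2 without sham 2. Txnrd1, the cytosolic thioredoxin reductase, gave 0.30, 0.48, 0.36, 0.84 and 0.49 on smoke arrays, against −0.85, 0.57, −0.51, −0.49 and −0.43 on sham arrays. Sham 2 exceeded 4 of the 5 smoke arrays, and the remaining sham arrays were all below 0. Its log2 fold change was 0.90 ± 0.14 (adjusted p = 0.00104) with all arrays and 1.07 ± 0.10 (adjusted p = 8.3e-08) without sham 2. Srxn1, sulfiredoxin, which repairs oxidised peroxiredoxins, was called without sham 2 only, at 0.99 ± 0.14 (adjusted p = 0.000277). With marked spots left out, the Txnrd1 call with all arrays was lost (0.82, adjusted p = 0.0853) and the one without sham 2 was kept. A second, dimmer Srxn1 probe gave 0.31 (adjusted p = 0.557). The list's median was −0.05 with all arrays and −0.09 without sham 2, below that of all genes.

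Hmox1, heme oxygenase, gave −0.49, −0.47, −0.57, 0.84 and 0.05 on smoke arrays, against −1.48, 1.49, −1.25, −1.23 and −1.49 on sham arrays. Sham 2 was above the highest smoke array. Without sham 2 the log2 fold change was 1.25 ± 0.20 (adjusted p = 0.00131), and with all arrays 0.72 ± 0.34 (adjusted p = 0.57). Hmox1 was the 1 gene called among 17 of heme, iron and superoxide handling. Of the 9 genes that produce NADPH none was called. The gene of Nrf2 itself, Nfe2l2, gave 1.55 to 2.03 on smoke arrays and 0.33 to 1.51 on sham arrays with no overlap, but did not pass the test (log2 fold change 0.75, adjusted p = 0.358, with all arrays).

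**Figure D2:**
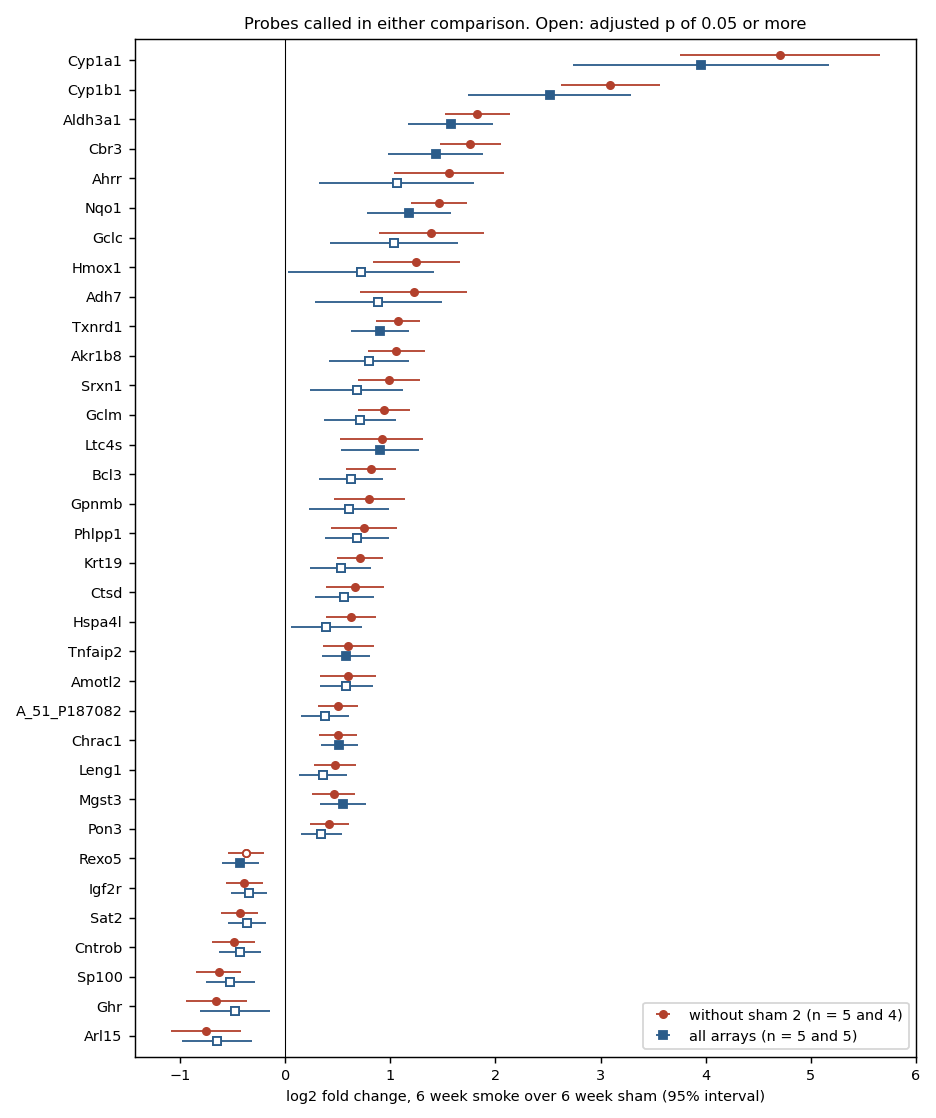
Log2 fold change of smoke over sham with its 95% interval for each of the 34 probes called in either setting, circles without sham 2 and squares with all arrays, open symbols marking an adjusted p of 0.05 or more. The upper part holds AhR and detoxification genes, whose intervals widen most when sham 2 is included, while Ltc4s, Tnfaip2 and Chrac1 barely move.

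Short stretches of promoter are shown for the called genes in which a search found the letters of either response element, as these are the elements through which AhR and Nrf2 are known to act. Promoters are those of RefSeq on GRCm38.p6, and the search covered the 250 bases before each start. Of the 33 named genes called in either setting, 27 had a promoter in the table. The core of the xenobiotic response element was searched as TNGCGTG and that of the antioxidant response element as TGACNNNGC, both on either strand. Capitals mark the match, each stretch is written on the strand of its gene, and a match written as the reverse complement lies on the other strand.
Ahrr, TNGCGTG, chr13:74292344-74292370, minus strand: gcggggcggcTCGCGTGctggggtggg
Txnrd1, reverse complement of TGACNNNGC, chr10:82859104-82859132, plus strand: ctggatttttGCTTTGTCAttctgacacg
Gclm, reverse complement of TGACNNNGC, chr3:122245413-122245441, plus strand: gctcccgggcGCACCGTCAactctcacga
Ctsd, TGACNNNGC, chr7:142387871-142387899, minus strand: gcgggtcagcTGACTCCGCgggactgcgg
Tnfaip2, TGACNNNGC, chr12:111442490-111442518, plus strand: aacagcaaagTGACCCCGCccctctctct
The xenobiotic core occurred in 1 of the 27 genes, Ahrr, beside 4.76% of the 27025 genes in the table. The antioxidant core occurred in 4 of the 27 (14.8%), beside 11.5% of all genes, so the share among called genes was close to that of all genes. Ctsd held a second match on the other strand. Cyp1a1, Cyp1b1 and Nqo1 had no match within this window, which does not reach elements farther from the start.

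Several called genes stood outside these pathways, and sham 2 was not among the smoke arrays for some of them. Ltc4s, the synthase of leukotriene C4, gave 2.41, 1.97, 2.08, 1.29 and 1.98 on smoke arrays, against 1.16, 0.83, 0.72, 1.34 and 0.86 on sham arrays. Smoke 4 fell just below the highest sham array, sham 4, and sham 2 was within the range of the other sham arrays. The log2 fold change was 0.90 ± 0.18 (adjusted p = 0.0369) with all arrays and 0.92 ± 0.19 (adjusted p = 0.0334) without sham 2. Its spot was marked on 4 smoke and 4 sham arrays. With marked spots left out, a single smoke array and a single sham array remained for it. The log2 fold change was then 1.43 in both settings, with no spread left to test. Tnfaip2, a gene induced by tumour necrosis factor, gave −0.72, −0.94, −1.15, −1.13 and −0.74 on smoke arrays, against −1.74, −1.47, −1.43, −1.56 and −1.44 on sham arrays. The groups did not overlap with any of the sham arrays, which holds for 0.524% of all probes on the higher side. It rose by 0.57 ± 0.11 (adjusted p = 0.0305) with all arrays and by 0.60 ± 0.12 (adjusted p = 0.0202) without sham 2.

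Chrac1, a histone-fold subunit of chromatin remodelling complexes, gave −0.64, −0.77, −0.72, −0.83 and −0.70 on smoke arrays, against −1.09, −1.41, −0.99, −1.41 and −1.50 on sham arrays. Smoke arrays were closely spaced and all lay above all sham arrays. Chrac1 rose by 0.51 ± 0.08 on the log2 scale (adjusted p = 0.00301) with all arrays and 0.50 ± 0.09 (adjusted p = 0.00507) without sham 2. Phlpp1, a phosphatase that acts on Akt, and Amotl2, a junction protein of the angiomotin family, also had no overlap with any sham array. They were called without sham 2 only, at 0.75 ± 0.15 and 0.60 ± 0.13 (adjusted p = 0.025 and 0.0457), and had adjusted p = 0.0707 and 0.0571 with all arrays. The Phlpp1 spot was marked on 3 smoke arrays and 1 sham array, and without marked spots it was not called (0.51, adjusted p = 0.419, without sham 2). Leng1 and a probe without a symbol, A_51_P187082, rose by 0.47 and 0.50 without sham 2.

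Genes of epithelium and inflammation moved singly. Krt19, a keratin of simple epithelia, gave 1.79, 1.97, 1.97, 1.93 and 2.38 on smoke arrays, against 0.94, 2.01, 1.44, 1.62 and 0.93 on sham arrays. Without sham 2 it rose by 0.71 ± 0.11 (adjusted p = 0.000348), the only call among 17 keratin and airway injury genes. The airway mucins Muc5b and Muc4 had log2 fold changes of 1.15 and 0.81 and were not called (adjusted p = 0.546 and 0.384). Muc5b ranged from 0.52 to 3.50 on smoke arrays and from 0.68 to 1.83 on sham arrays, and its spot was marked on 3 smoke and 4 sham arrays.

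Bcl3, a nuclear IκB protein that binds NF-κB subunits, gave 0.36, 0.49, 0.23, 0.68 and 0.69 on smoke arrays, against −0.26, 0.81, −0.51, −0.49 and −0.19 on sham arrays. It was the 1 call among 23 genes of IL-6 and Stat3 signalling, at 0.81 ± 0.12 without sham 2 (adjusted p = 0.000192) and 0.62 ± 0.15 with all arrays (adjusted p = 0.132). Socs3, the feedback inhibitor of Stat3 signalling, lay on the other side of the threshold at 0.53 ± 0.12 (adjusted p = 0.0508) without sham 2. Il6 itself gave −1.20, −1.51, −1.60 and −1.78 on smoke arrays 1, 2, 3 and 5, with smoke 4 the highest of the group, against −1.35, −0.32, −1.03, −1.38 and −1.89 on sham arrays. The ranges overlapped throughout, sham 2 was the highest array, and the log2 fold change was −0.07 ± 0.28 (adjusted p = 0.973) without sham 2. Il6 exceeded the threshold on 3 of the 5 smoke arrays.

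Ptgs2, the inducible cyclooxygenase, gave 0.26, 1.08, 1.14, 0.42 and 0.96 on smoke arrays, against −0.72, 0.67, −0.11, 0.25 and −0.83 on sham arrays. The log2 fold change was 1.00 ± 0.25 without sham 2 (adjusted p = 0.103), and the difference was not called. Smoke arrays overlapped with sham 2 only. Alox5, the lipoxygenase upstream of leukotrienes, did not overlap with any sham array but had a log2 fold change of 0.66 ± 0.25 (adjusted p = 0.387), and a second, dimmer Alox5 probe gave −0.24 (adjusted p = 0.806). Of 19 genes of prostaglandin and leukotriene synthesis tested, Ltc4s was the only one called, and the median was 0.10 with all arrays and 0.14 without sham 2. None of 32 cytokine and chemokine genes was called in either setting, with a median of −0.05 and −0.06. Among their leading members, Ccl4 had −0.61 ± 0.16 (adjusted p = 0.14) and Ccl20, a chemokine of epithelium, had 0.59 ± 0.20 (adjusted p = 0.329) without sham 2. Lung-restricted Cxcl15 had 0.56 ± 0.20 (adjusted p = 0.374). Its spot was marked on 4 smoke and 4 sham arrays, and that of Ccl20 on 4 and 5.

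Macrophage genes leaned upward as a group although no single identity marker was called. All 18 macrophage identity genes had a fold change above 0 without sham 2, beside 52.4% of all genes, and their median was 0.45 with all arrays and 0.48 without sham 2. Their mean log2 ratio was 1.50, 1.67, 1.65, 1.49 and 1.88 on smoke arrays 1 to 5, against 0.91, 1.40, 1.18, 1.13 and 1.01 on sham arrays 1 to 5. The smoke arrays all exceeded all sham arrays, and sham 2 was the highest sham array. Other marker lists leaned the same way without sham 2, with 12 of 13 muscle markers (median 0.43), 11 of 12 alveolar type II markers (median 0.20) and 7 of 8 club cell markers (median 0.27) above 0. Within the 4 runs the median difference of the macrophage list was 0.29 to 0.71. That of the other lists changed sign between runs, at −0.27 to 1.28 for muscle, −0.17 to 0.48 for alveolar type II and −0.09 to 1.02 for club cell markers. In whole-lung RNA, more macrophages and more RNA of these genes per macrophage cannot be told apart.

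Chil3, a chitinase-like protein of alveolar macrophages, had the largest change of the list. Its levels were 2.94, 3.08, 3.65, 4.08 and 5.46 on smoke arrays, against 1.44, 4.30, 2.96, 1.56 and 2.12 on sham arrays. The log2 fold change was 1.95 ± 0.44 (adjusted p = 0.0533) without sham 2 and 1.58 ± 0.46 (adjusted p = 0.278) with all arrays. Cd163, the haemoglobin scavenger receptor, and Siglecf, a lectin of alveolar macrophages, had 0.94 ± 0.31 and 0.89 ± 0.32 without sham 2 and were not called (adjusted p = 0.307 and 0.375). The scanner software had marked the spots of Cd163 and Siglecf on all 10 arrays, and that of Chil3 on 3 smoke arrays and on sham 2.

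In the macrophage lysosome and lipid list 2 of 28 genes were called higher without sham 2 and none with all arrays. Without sham 2, 23 of 28 had a fold change above 0, beside 52.4% of all genes. Gpnmb, a membrane glycoprotein of loaded lysosomes, gave −1.98, −1.93, −2.18, −2.12 and −1.15 on smoke arrays, against −3.24, −1.71, −2.55, −2.59 and −2.40 on sham arrays. It rose by 0.80 ± 0.17 without sham 2 (adjusted p = 0.0273). Ctsd, the lysosomal protease cathepsin D, rose by 0.66 ± 0.13 (adjusted p = 0.025). The cysteine proteases Ctss and Ctsk had larger fold changes, 1.06 ± 0.24 and 0.94 ± 0.29, but wider errors (adjusted p = 0.0549 and 0.249). Ctsk gave 1.24 to 1.90 on smoke arrays and 0.62 to 0.81 on sham arrays, with no overlap. The proton pump subunit Atp6v0d2 had 0.91 ± 0.25 (adjusted p = 0.173). The spot of Ctsk was marked on 5 smoke and 4 sham arrays and that of Atp6v0d2 on 5 and 5.

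**Figure D3:**
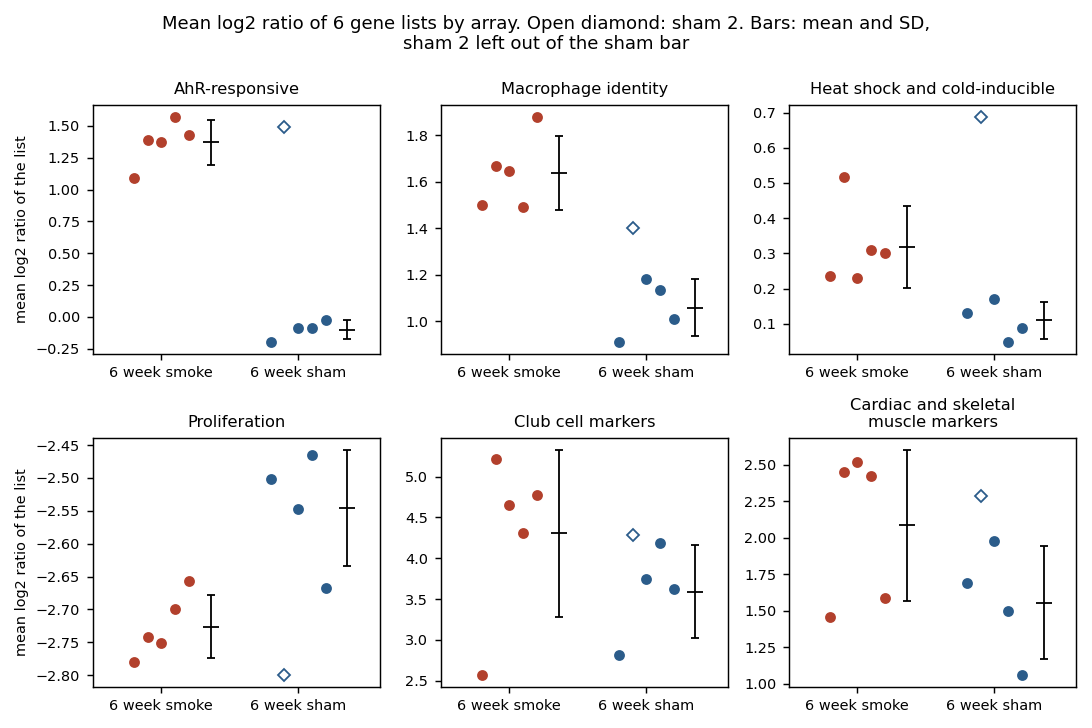
Mean log2 ratio of lung to reference over the tested members of 6 gene lists on each 6 week smoke array (left) and each 6 week sham array (right), the open diamond being sham 2 and the bars the mean and SD of the 5 smoke and the other 4 sham arrays. AhR and macrophage means of smoke arrays lie above those of the other 4 sham arrays, sham 2 has the highest heat shock mean, and club cell and muscle means overlap.

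In the heat shock list 20 genes were tested, and sham 2 was above the smoke range for Hspa4l and Hspa1a, as it was for Ahrr, Gclc and Hmox1. Hspa4l, a member of the Hsp110 family, was called without sham 2 (0.62 ± 0.12, adjusted p = 0.00953). Its levels were −0.21, −0.16, −0.37, −0.18 and −0.37 on smoke arrays, against −0.92, 0.60, −0.75, −1.25 and −0.59 on sham arrays, with sham 2 far above the smoke range. The inducible chaperone Hspa1a gave 2.42 to 3.58 on smoke arrays and 1.13 to 2.07 on the other 4 sham arrays, and 4.59 on sham 2. Its log2 fold change was 1.27 ± 0.31 (adjusted p = 0.0941) without sham 2. Its cochaperone Dnajb1 had 0.56 ± 0.15 (adjusted p = 0.154). The mean of the list was 0.23 to 0.52 on smoke arrays, 0.05 to 0.17 on the other 4 sham arrays and 0.69 on sham 2.

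Decreases were fewer and smaller. Sp100, an interferon-responsive protein of nuclear bodies, gave 0.95, 1.70, 1.37, 1.00 and 0.98 on smoke arrays, against 1.45, 1.20, 1.71, 2.15 and 1.73 on sham arrays. The ranges overlapped even without sham 2, since smoke 2 was above sham 1. Smoke 2 has no 6 week sham array in its run. In the 4 runs with both groups, which leave it out, the smoke array was lower by 0.50 to 0.78, sham 2 left out. The log2 fold change was −0.63 ± 0.10 (adjusted p = 0.00163) without sham 2 and −0.53 ± 0.11 (adjusted p = 0.0707) with all arrays. Of the other 2 Sp100 probes, both dimmer, one gave −0.41 (adjusted p = 0.537) and one −0.05 (adjusted p = 0.977) without sham 2. Sp100 was the only call among 36 interferon-responsive genes. Of these, 27 had a fold change below 0 without sham 2, beside 6970 of all 14653 genes. Their median was −0.07 with all arrays and −0.09 without sham 2. Within the 4 runs, sham 2 left out, their median difference was −0.29 to 0.04 and lay above 0 in 1 run. Oas2 and Zc3hav1, both antiviral, had −0.43 and −0.39 and were not called (adjusted p = 0.476 and 0.14).

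Rexo5, a putative RNA exonuclease, gave −0.77, −1.01, −0.88, −1.22 and −0.97 on smoke arrays, against −0.38, −0.47, −0.71, −0.69 and −0.66 on sham arrays. No smoke array overlapped with a sham array, which holds for 0.325% of all probes on the lower side. It fell by 0.43 ± 0.09 on the log2 scale with all arrays (adjusted p = 0.0355) and by 0.37 ± 0.08 without sham 2, just short of the threshold (adjusted p = 0.0549).

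Ghr, the growth hormone receptor, gave 0.12, 0.13, 0.14, −0.16 and −0.40 on smoke arrays, against 0.93, −0.54, 0.55, 0.37 and 0.55 on sham arrays. Only sham 2 reached the smoke range, and it passed below it. Without sham 2 the log2 fold change was −0.66 ± 0.14 (adjusted p = 0.0403). Arl15, a small GTPase, had −0.75 ± 0.16 (adjusted p = 0.0452), Cntrob, a centriole protein, −0.49 ± 0.10 (adjusted p = 0.0257), Sat2, a member of the spermidine acetyltransferase family, −0.43 ± 0.09 (adjusted p = 0.0191) and Igf2r, the receptor that carries lysosomal enzymes, −0.39 ± 0.09 (adjusted p = 0.0497). Tiam1, an exchange factor for Rac, had −0.27 ± 0.10 (adjusted p = 0.384).

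Proliferation genes were low against the reference in all lungs, with none called. Without sham 2, 24 of 27 had a fold change below 0, beside 6970 of all 14653 genes. Their median was −0.15 with all arrays and −0.20 without sham 2, and the median difference was below 0 in 4 of 4 runs, at −0.34 to −0.05. Their mean was −2.78 to −2.66 on smoke arrays, −2.67 to −2.46 on the other 4 sham arrays and −2.80 on sham 2. The mitotic genes Cdc20 and Aurka and the replication gene Cdc6 had −0.36, −0.34 and −0.35 and were not called (adjusted p = 0.662, 0.487 and 0.694). Of 38 collagen and fibroblast genes none was called. Col3a1, a fibrillar collagen, came nearest at −0.66 ± 0.15 (adjusted p = 0.0549). Among 18 clock genes none was called, the repressor Nr1d1 having −0.55 ± 0.15 (adjusted p = 0.145) and Nfil3 0.47 ± 0.15 (adjusted p = 0.288).

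Markers of other cells were measured beside these groups, and their part in the results was not tested. The 8 club cell markers averaged 2.56 to 5.22 on smoke arrays and 2.82 to 4.18 on the other 4 sham arrays, with 4.29 on sham 2. Smoke 1 was the lowest smoke array and sham 1 the lowest sham array. The secretoglobin Scgb1a1 was at 1.15 on smoke 1, beside 2.78 to 5.09 on the other smoke arrays, and at 0.97 on sham 1. Its mean Cy5 signal was at the scanner limit, and its Cy5 spot was marked on 5 smoke and 5 sham arrays. Its ratios therefore do not resolve differences in lung RNA. The secretory genes Scgb3a1 and Bpifa1 had log2 fold changes of 1.75 ± 0.64 and 1.55 ± 0.74 without sham 2 (adjusted p = 0.375 and 0.531). The 13 muscle markers, which include heart genes, had a median of 0.43 without sham 2. They averaged 1.45 to 2.52 on smoke arrays, 1.06 to 1.98 on the other 4 sham arrays and 2.29 on sham 2, and their median was −0.11 with marked spots left out. The 9 neutrophil markers averaged 0.82 to 2.01 on smoke arrays and 0.66 to 1.12 on the other 4 sham arrays, and 3 of them were above the threshold on all 10 arrays. Among the neutrophil markers, Ltf, which also comes from airway glands, had 1.01 ± 0.39 (adjusted p = 0.396) and Lcn2 had 0.58 ± 0.15 (adjusted p = 0.103). The Ltf spot was marked on 5 smoke and 4 sham arrays. The 9 B cell markers had a median of −0.21 and the 12 T and NK cell markers one of −0.15, with none called. In all, 12 of the 35 lists held a called gene without sham 2 and 6 with all arrays.

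**Figure D4:**
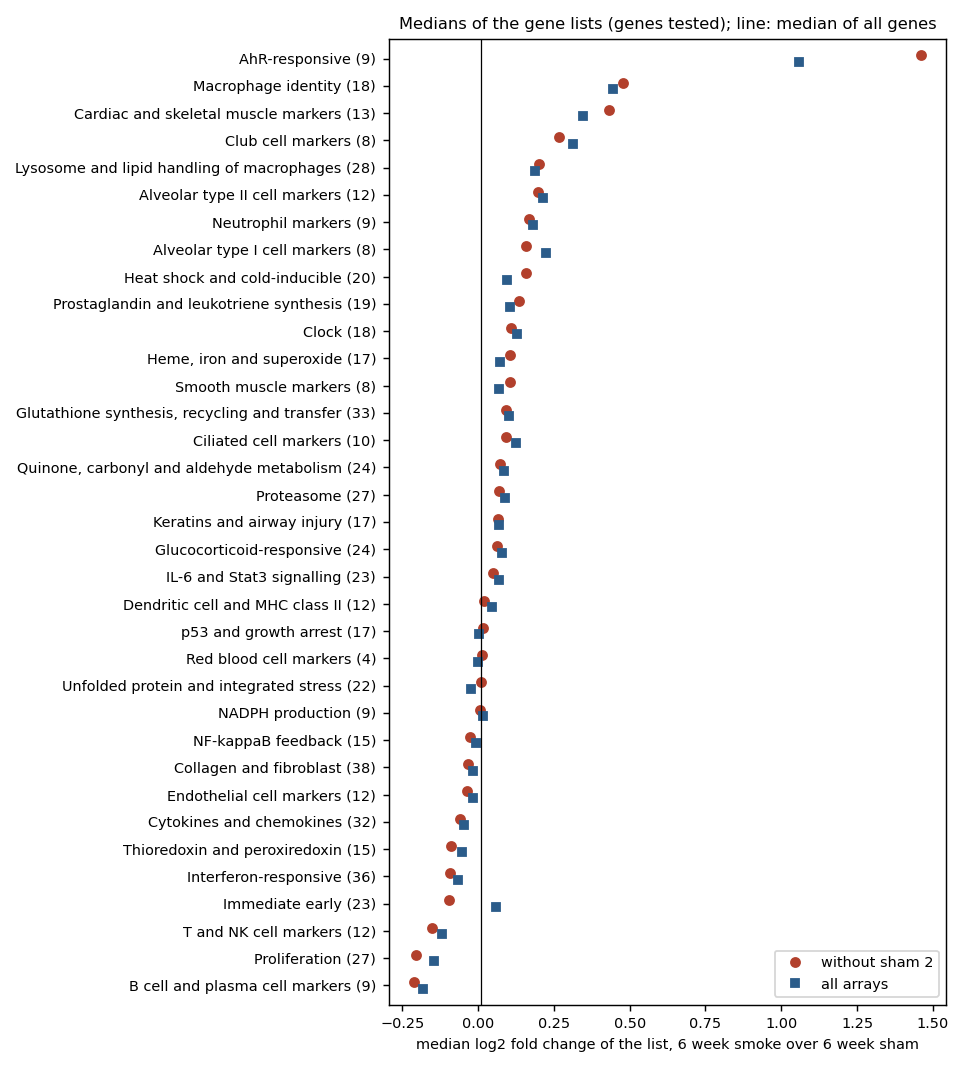
Median log2 fold change of smoke over sham for each of the 35 gene lists, with the number of genes tested in brackets, circles without sham 2 and squares with all arrays, and a line at the median of all genes. The AhR list stands at 1.46 without sham 2, the macrophage list at 0.48, and the lowest list, that of B cells, at −0.21.

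The place of sham 2 can be read across the called probes. Of the 27 probes called higher without it, sham 2 was within the smoke range for 11 and above the smoke range for 10, between the ranges of smoke and the other shams for 1, within the range of the other shams for 3 and below it for 2. For the 6 lower ones it was within the smoke range for 3, below it for 1, between the ranges for 1 and within the range of the other shams for 1. Smoke arrays did not overlap with the other 4 sham arrays for 24 of the 27, beside 1.28% of all probes, and did not overlap with all 5 for 4 of the 27. These probes were called in the same contrast, so the counts describe them and test nothing.

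Comparison with the other smoke groups showed how the 6 week response related to exposure time and to a break. Mice of those groups were exposed for 12 weeks, or for 6 weeks followed by 6 weeks without exposure, each with sham mice of its own. The 6 and 12 week smoke effects did not differ at an adjusted p under 0.05 for any probe, with all arrays or without sham 2, while 854 and 853 probes had an unadjusted p under 0.05 (both 4.86%). For Cyp1a1 the difference without sham 2, 6 weeks minus 12 weeks, was −0.09 with a 95% interval of −1.43 to 1.25, and with all arrays it was −0.93 (−2.69 to 0.83). For Nqo1 it was −0.47 (−0.84 to −0.10) without sham 2. The largest gap among the genes above was that of Il6, at −1.68 (−2.50 to −0.86, adjusted p = 0.59).

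With sham 2 left out, the smoke effect was smaller after a break for a few probes. Sham 2 was singled out by its Cyp1a1 and Cyp1b1 levels, so its removal favours a larger difference for these genes. Without sham 2, 12 probes differed between 6 weeks of smoke with and without a break at an adjusted p under 0.05 (0.0683%), 11 of them higher without the break (0.0626%) and 1 lower (0.00569%), and with all arrays there were 0. At an unadjusted p under 0.05 the counts were 1272 without sham 2 (7.24%) and 1149 with all arrays (6.54%). The 12 probes were those of Cyp1a1, Cyp1b1, Ahrr, Aldh3a1, Cbr3, Nqo1, Hmox1, Txnrd1, Akr1b8, Gclm, Bcl3 and, on the lower side, Sp100. For Cyp1b1 the log2 fold change was 3.09 right after exposure and 0.01 after the break, a difference of 3.09 (adjusted p = 1.8e-06). For Cyp1a1 the fold changes were 4.71 and 0.04, a difference of 4.67 (adjusted p = 0.000134). With all arrays the same differences were 2.51 and 3.91 (adjusted p = 0.258 for each).

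**Figure D5:**
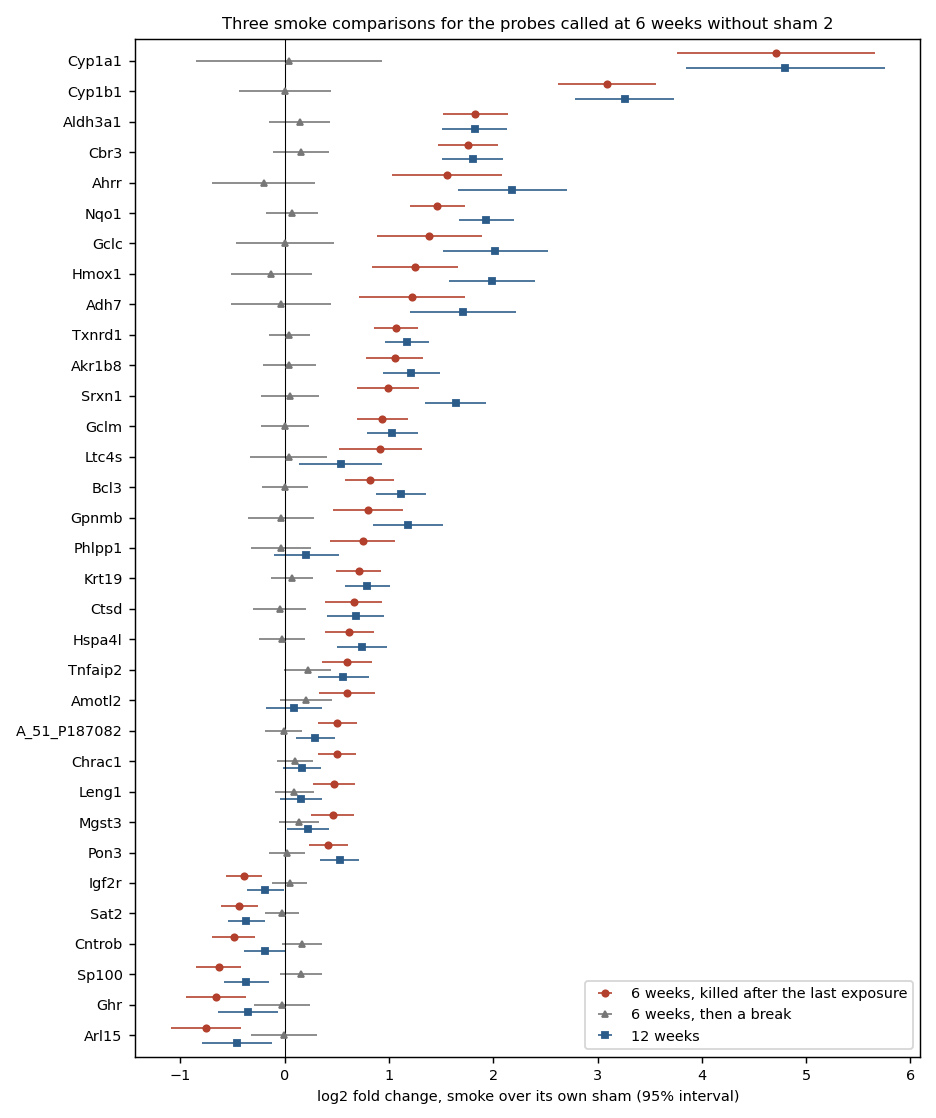
Log2 fold change of smoke over its own sham with its 95% interval for the 33 probes called at 6 weeks without sham 2, circles for lungs taken right after 6 weeks of exposure, triangles for 6 weeks of exposure followed by a break and squares for 12 weeks. Triangles of the AhR and detoxification genes sit near 0, while circles and squares of these genes lie to the right with overlapping intervals in most cases.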

How the data were processed

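The deposited raw files hold, per the labels, the scanner's spot and background intensity for Cy5 and Cy3, and the authors' series table holds their LOWESS-normalized log2 ratio of lung to reference. Spot medians were background-corrected (normexp, offset 50), loess-normalized within arrays and averaged per probe. Probes above the array's threshold on at least 4 arrays of any 1 group were kept, 17560 of 20868. limma 3.58.1 (R 4.3.3) fitted all 39 arrays, or 38 without sham 2, with 8 groups and the 5 inferred runs as a block. Benjamini-Hochberg adjustment covered every kept probe. limma stood in place of the authors' MAANOVA. Of the gene probes, 18235 had 1 symbol, and a gene was represented by its brightest probe. Genes were named if called with all arrays, among the 20 largest increases or 10 largest decreases without sham 2, leading in a list, or named by the study, with a few others called. The comparison and the 35 lists were chosen with earlier results of these data known. The fitting was tested on simulated data. The number of arrays limits the precision. Alternatives are described in the closing section.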

Additional observations from a re-analysis of the deposited data

Results flagged for a closer look

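Single arrays stood apart from the rest of their group for 19 of 138 gene and group combinations (13.8%, over 69 genes in smoke and sham arrays), a rule by which chance alone gives about 5%. Most of the 69 genes were named because they were called or led once sham 2 was left out, so an excess for that array follows in part from how the genes were chosen, and the number is a description only. In 13 of the 19 the array was sham 2, always on the high side. Its log2 ratios of lung to reference were 2.00 for Cyp1b1, 1.25 for Aldh3a1, 2.94 for Cbr3, 2.52 for Ahrr, 4.21 for Gclc, 1.49 for Hmox1, 2.99 for Adh7, −0.27 for Akr1b8, 1.04 for Srxn1, 0.81 for Bcl3, 1.59 for Pon3, 4.59 for Hspa1a and 0.96 for Dnajb1. These include chaperones as well as AhR and detoxification genes. Among smoke arrays, smoke 4 was high for Cyp1b1 (2.05), smoke 5 for Gpnmb (−1.15) and smoke 1 for Leng1 (0.48), and smoke 1 was low for Bpifa1 (1.92). Among the remaining sham arrays, sham 1 was low for Alox5 (1.24) and sham 3 high for Lcn2 (0.51).

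The smoke effect differed between lungs taken right after 6 weeks of exposure and lungs taken after a break for 12 probes without sham 2, by limma's test of the difference itself. The difference in log2 fold change, no break minus break, was 4.67 for Cyp1a1, 3.09 for Cyp1b1, 1.76 for Ahrr, 1.68 for Aldh3a1, 1.61 for Cbr3, 1.39 for Nqo1, 1.37 for Hmox1, 1.03 for Txnrd1, 1.01 for Akr1b8, 0.94 for Gclm, 0.81 for Bcl3 and −0.79 for Sp100. With all arrays 0 probes passed, so each of these calls depends on leaving out sham 2.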

How the results depend on the processing

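With all arrays the count of called probes was 11 (10 higher and 1 lower), and it was 26 under median centring (all higher), 46 with marked spots left out (24 higher and 22 lower, of 14331 probes), 33 with Cy5 above the threshold on every array (25 higher and 8 lower, of 9612 probes), 22 with array weights and 0 in a fit of the smoke and sham arrays alone. Leaving out 1 array at a time gave 7 to 33, with 33 without sham 2, 20 without sham 5 and 7 without smoke 1, smoke 5, sham 1 or sham 4. Without sham 2 the count was 33 (27 higher and 6 lower), and it was 61 under median centring (all higher), 87 with marked spots left out (57 higher and 30 lower, of 14300 probes), 79 with Cy5 above the threshold on every array (64 higher and 15 lower, of 9625 probes), 55 with array weights, 19 with no block for the runs and 3 in the fit of these arrays alone. Leaving out 1 further array gave 17 (without sham 4) to 41 (without sham 3), and 20 without smoke 5. The difference with against without a break had 0 calls with all arrays and 12 without sham 2. The cause of these changes was not tested, other than the fewer probes or arrays named. Median centring moved the median of all probes to 0.07 without sham 2, against 0.01. The log2 fold change of Tiam1 changed sign under median centring with all arrays (0.012), and that of Il6 without sham 2 changed sign in the fit of these arrays alone (0.016) and ranged from −0.27 to 0.094 on leaving out 1 further array. With all arrays, the Rexo5 call was lost in 17 of 23 settings, Ltc4s in 12, Mgst3 in 10 and Tnfaip2 in 6. These 23 settings hold the fit without sham 2 under separate labels, each of which counts toward the 17 for Rexo5. Without sham 2, Igf2r was lost in 17 of 21 settings, Pon3, Amotl2 and Mgst3 in 13, Arl15 and Ltc4s in 12 and Cntrob and Ghr in 10, while Cyp1b1 and Cbr3 were lost in 0. No paired analysis was possible by replicate number, because the labels give these groups no shared numbers, so arrays were paired by run only, with the run as a block. The fit of these arrays alone keeps that pairing, and its calls are the 0 and 3 above. Dim probes and marked spots limit what these arrays can show.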
